A study of Arabidopsis thaliana with 16 samples.

Results

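AT5G52810, known as SARD4, encodes the reductase that completes the synthesis of pipecolic acid. It was represented by 1 single-gene feature among the 3439 features of an array measured on wild-type plants (WT) of Arabidopsis thaliana, ecotype Landsberg. Total RNA came from plants that had last been kept for 48 hours at 20 µE in either white light or blue light, and each light had 8 array columns, numbered 1 to 8. All 16 columns share the genotype and the fluence rate, and the sources used here name neither the organ nor the light that came before. SARD4 was chosen by the values described below, namely its difference between the lights, its rank in each column and its split between the white light replicates, so these values are given as a description with no test.

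Pipecolic acid is a non-protein amino acid made from lysine. The aminotransferase ALD1 removes an amino group from lysine, the product closes into a ring, and SARD4 reduces that ring to pipecolic acid in the plastid. The monooxygenase FMO1 then makes N-hydroxypipecolic acid, the signal that spreads systemic acquired resistance from an infected leaf to the rest of the plant. The transcription factors SARD1 and CBP60g are known to switch on genes of this route together with those of salicylic acid synthesis.

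Each column was most alike to the column with the neighbouring replicate number (16 of 16 columns). Neighbours 1 and 2, 3 and 4, 5 and 6, and 7 and 8 were therefore averaged into samples 1 to 4 of each light, which gave n = 4 per light. Nothing in the labels says that the columns came from separate plants, so the spread between them may be technical. Total signal, the sum of the intensities of all features in a column, lay between 1044 and 3320 in white light, and in blue light it lay between 3067 and 3735. The precision of every value is limited by the number of arrays.

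In white light the SARD4 feature was among the brightest of the array in every column, and in blue light it was among the dimmer ones. As deposited, its intensity in white light was 5.86 and 4.10 in replicates 1 and 2, 0.559 and 1.04 in replicates 3 and 4, 4.51 and 4.80 in replicates 5 and 6, and 0.393 and 0.386 in replicates 7 and 8. In blue light it was 0.346 and 0.340 in replicates 1 and 2, 0.219 and 0.261 in replicates 3 and 4, 0.412 and 0.372 in replicates 5 and 6, and 0.187 and 0.214 in replicates 7 and 8. White light replicates 1, 2, 5 and 6 were far above all other columns, while white light replicates 7 and 8 lay just below blue light replicate 5. The deposited intensities of the lights thus overlapped, by 2 white light columns and 1 blue light column. From the lowest to the highest column the intensity spanned 15.2-fold in white light and 2.21-fold in blue light. No SARD4 value was at 0, and the highest was well below the top value of the table, which is 100.

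**Figure D1:**
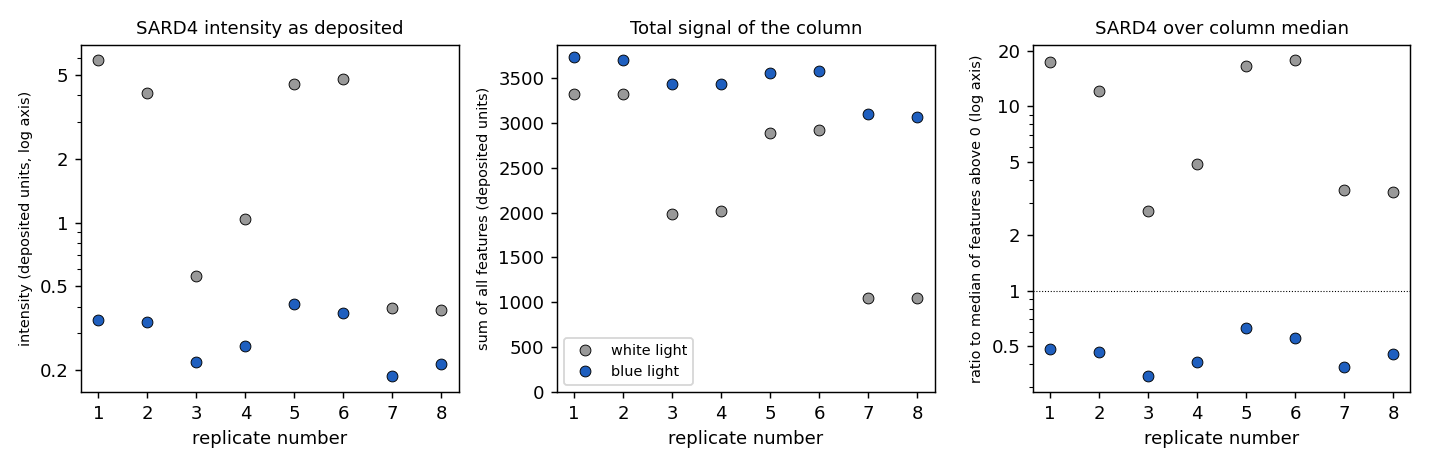
Left, the deposited intensity of SARD4 (log axis) by replicate number. Middle, the total signal of each column. Right, SARD4 divided by the median of the features above 0 in its column (log axis). Grey points are white light and blue points are blue light, 8 columns each. The white light replicates with low SARD4 intensity (3, 4, 7 and 8) are those with total signal between 1044 and 2014, and after division by the column median all white light columns lie above 1 and all blue light columns below 1.

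The white light columns with low SARD4 intensity were also those with the lowest total signal. Total signal was 1988 and 2014 in white light replicates 3 and 4, and 1044 in each of replicates 7 and 8. It was 3320 and 3315 in replicates 1 and 2, and 2890 and 2917 in replicates 5 and 6. The part of total signal in the split of SARD4 was not tested. Divided by the median of the features above 0 in the same column, SARD4 was 17.4 and 12.1 times the median in white light replicates 1 and 2, and 16.6 and 17.7 times in replicates 5 and 6. In replicates 3 and 4 it was 2.69 and 4.85 times the median, and in replicates 7 and 8 it was 3.53 and 3.42 times. The split of white light into high and low replicates was thus still present relative to the other features of each column. In blue light the same ratio ran from 0.343 to 0.626, with a median of 0.460, and the lights did not overlap on this scale.

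The rank of SARD4 within a column needs no scaling between columns. It follows the place of SARD4 among the features from column to column, since the brightness of different features does not order the amounts of their transcripts. The rank, like the percentile below, thus also depends on the other features of a column. White light replicate 7, with an intensity of 0.393, was at rank 346, and blue light replicate 5, with 0.412, was at rank 2112. The medians of the features above 0 in these columns were 0.112 and 0.659. Counted from the brightest, SARD4 was at ranks 74 and 104 in white light replicates 1 and 2, 537 and 247 in replicates 3 and 4, 86 and 82 in replicates 5 and 6, and 346 and 351 in replicates 7 and 8. In blue light its ranks ran from 2112 in replicate 5 to 2601 in replicate 3. White light replicate 3 held the lowest white light place and was still far above the highest blue light place.

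As a percentile, the share of features above 0 that were dimmer than SARD4 was between 82.2% and 97.5% in the white light columns (median 94.2%) and between 13.3% and 29.9% in the blue light columns (median 18.9%). Over the averaged samples the percentile was 92.3% ± 5.48 in white light and 19.9% ± 5.68 in blue light (SD, n = 4 each). Columns of the lights therefore did not overlap, with 52.3 percentile points between the lowest white light and the highest blue light column. Of the 2498 features above 0 in every column, 12.6% had all white light columns above all blue light columns. Only 5 of these 2498 features had a wider gap in that direction than SARD4, 2 of them paired with a single gene, and none had so wide a gap in the other direction. The gap was among the values on which SARD4 was chosen, so its place in this order is a description.

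**Figure D2:**
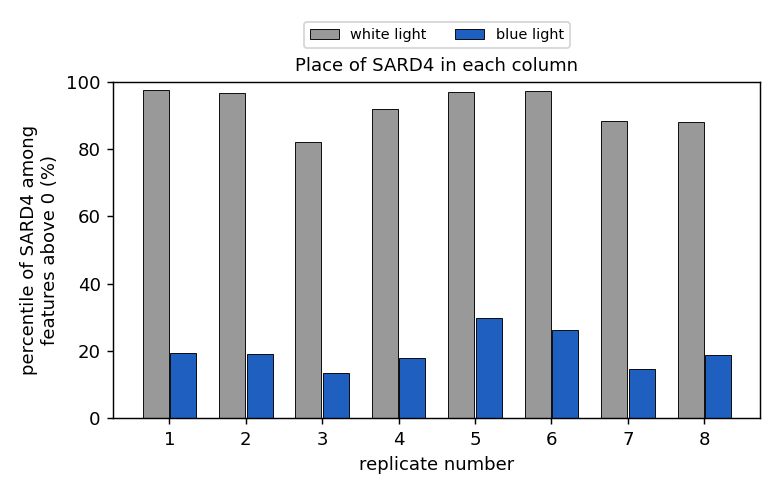
Bars give the percentile of SARD4 among the features above 0 in each column, by replicate number, for white light (grey) and blue light (blue). The white light bars stand between 82.2% and 97.5% and the blue light bars between 13.3% and 29.9%.

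After quantile normalisation, which gives every column the same distribution of log2 intensities, SARD4 in white light was at 1.83, 0.18, 1.85 and 0.18 in averaged samples 1 to 4. In blue light it was at -2.61, -2.83, -2.20 and -2.78. White light samples 1 and 3 formed a high pair and samples 2 and 4 a low pair, and in blue light samples 1 and 3 were again above samples 2 and 4, by less. The mean was 1.01 ± 0.96 in white light and -2.61 ± 0.28 in blue light (SD, n = 4 each). The difference was -3.62 on the log2 scale, a level 12.3-fold lower in blue light, and it was larger than the SD of either light.

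The difference was present within each sample number, where it was larger for the numbers with a high white light level. Between samples numbered 1 SARD4 was lower in blue light by 21.7-fold and between samples numbered 3 by 16.6-fold. Between samples numbered 2 it was lower by 8.08-fold and between samples numbered 4 by 7.81-fold. These folds hold after quantile normalisation, and the deposited intensities were closer in numbers 2 and 4. Their means in white and blue light were 0.797 and 0.24 in number 2, and 0.39 and 0.2 in number 4. In number 1 they were 4.98 and 0.343, and in number 3 they were 4.65 and 0.392. Ordered from the largest decrease, SARD4 stood at place 6 of 2862 features in number 1, place 27 of 2854 in number 2, place 19 of 2828 in number 3 and place 44 of 2805 in number 4. By the mean difference it stood at place 10 of the 2864 features tested and at place 2 of the 576 tested single-gene features. Just beyond it in that order was AT3G56010, with a log2 difference of -3.75, and just short of it was AT3G07790, with -3.42. All 8 blue light intensities of AT3G56010 were at most 0.0487, below the 10th percentile of the values above 0 (0.0764), so its place ahead of SARD4 is uncertain.

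**Figure D3:**
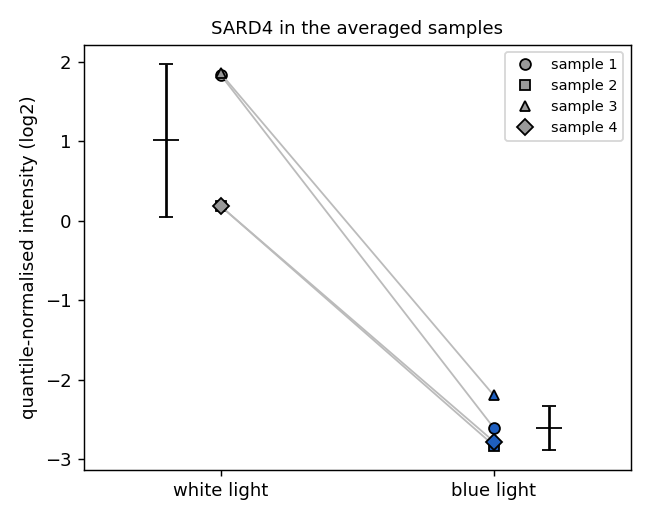
Quantile-normalised log2 intensity of SARD4 in the 4 averaged samples of each light. Grey lines join samples of the same number, and the horizontal ticks with bars beside the points give the mean ± SD (n = 4). Samples 1 and 3 start near 1.8 in white light and samples 2 and 4 at 0.18, and all 4 lie between -2.83 and -2.20 in blue light.

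The spread of SARD4 between averaged samples was wider than that of most features in white light and narrower in blue light. In white light its highest and lowest samples were 1.66 apart on the log2 scale, against a median range of 1.11 over 2790 features, and 75.0% of those features had a smaller range. In blue light the range was 0.63, against a median of 0.92 over 2827 features, and 22.1% had a smaller range. Columns with neighbouring numbers were closer to each other than the high and low white light pairs were. Neighbours differed by 0.55 in white light sample 1, 0.79 in sample 2, 0.09 in sample 3 and 0.01 in sample 4. The median feature differed by 0.21 to 0.39 between the same neighbours. In blue light the neighbours differed by 0.01 to 0.27 for SARD4.

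The direction of the SARD4 difference was the same under all 19 other settings of normalisation, low values, averaging and samples left out. Without normalisation the difference was -2.51, while the median of all features shifted by 1.37 toward blue light, so relative to that median SARD4 was at -3.87. Scaling to total signal shifted the median by 0.67 and placed SARD4 at -3.88 relative to it. With median centring, which shifted the median change by -0.12, SARD4 was at -3.88 relative to it. Without white light sample 1 the difference was -3.27 and without sample 3 it was -3.25, against -3.62 with all samples.

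**Figure D4:**
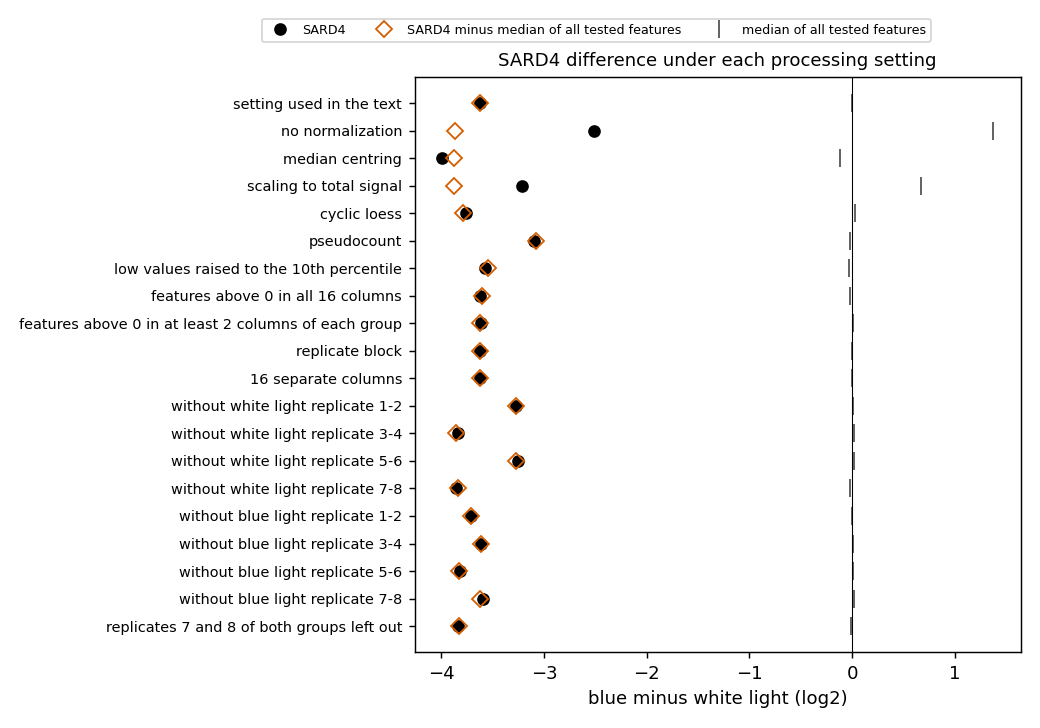
Blue minus white light difference of SARD4 on the log2 scale (filled circles), the median difference of all tested features (vertical ticks) and SARD4 minus that median (open diamonds), for the setting used in the text and 19 alternatives. Leaving out averaged samples is labelled by their replicate numbers. The circles lie between -3.99 and -2.51, and the setting with no normalisation stands apart until the median of all features is subtracted.

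Genes around pipecolic acid were looked up in 10 lists that held 113 genes. They covered the pipecolic acid route itself, its transcription factors, salicylic acid synthesis and perception, the EDS1 immune node, mobile signals of systemic acquired resistance, defence outputs, lysine and proline metabolism, and light signalling. Only SARD4 and 1 other member had a feature paired with that gene alone, and 4 more members of the lysine list had only features shared with another gene, which are not named. ALD1 and FMO1, the enzymes before and after SARD4, and the defence marker PR1 were among the members with no single-gene feature. Whether SARD4 moved with its route or alone was therefore not tested.

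The other measured member was AT3G53580, known as DAPF, the diaminopimelate epimerase near the end of lysine synthesis in the plastid, and thus of the pathway that supplies the precursor of pipecolic acid. Its normalised log2 level in white light was -2.83, -1.67, -3.45 and -3.11 in samples 1 to 4, and in blue light it was -3.30, -4.24, -5.42 and -3.85. Blue light sample 1 lay above white light sample 3, so the groups overlapped, and on this normalised scale blue light was the lower within each number. As deposited, blue light was the higher in number 1 (0.234 and 0.215 against 0.132 and 0.11) and number 4 (0.0983 and 0.0913 against 0.0201 and 0.065). It was the lower in number 2 (0.099 and 0.0941 against 0.29 and 0.123). In number 3 the values were 0.036 and 0.075 in blue light and 0 and 0.0634 in white light. White light sample 3 rests on replicate 6 alone, because replicate 5 was listed at 0.

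DAPF fell by 1.44 in blue light (SE 0.50, n = 4 per light, limma adjusted p = 0.0483). Of the 2864 features tested, 16.4% were called lower and 15.9% higher in blue light, so 1 call in the 1 list member that could be tested is not a result about the list. The call was near the threshold and ended under 14 of 18 alternatives. With averaged samples left out its value stayed between -1.77 and -1.04, while it was -0.92 with cyclic loess, -0.44 scaled to total signal and 0.26, in the other direction, without normalisation. The deposited intensities of this feature lay between 0 and 0.290.

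The genes whose pattern was most like that of SARD4 were found by Pearson's correlation over the 8 averaged samples, among 554 single-gene features with a value in each. They were AT3G06870 (r = 0.95), AT3G51510 (0.95), AT5G05380 (0.94), AT1G73120 (0.94) and AT3G07790 (0.93). AT5G05380 encodes the prenylated RAB acceptor PRA1.B3, a protein of vesicle transport. All of these 5 had lower means in blue light, by 1.04 to 3.42 on the log2 scale, and that difference enters the likeness by which they were chosen, so it was not tested. They did not share the white light split of SARD4. In white light AT3G51510 was at -0.57, -0.60, -0.62 and -0.68 in samples 1 to 4, and PRA1.B3 was at -0.13, -0.10, 0.24 and 0.20. AT1G73120 was at 0.55, 0.68, 1.13 and -0.26, which sets sample 2 above sample 1 where SARD4 had it far below.

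A different set of genes came closest when the mean of each light was first subtracted, so that only the deviations within the lights were compared. These were AT4G18180 (r = 0.93), AT4G23080 (0.89), AT2G28540 (0.89), AT5G64150 (0.87) and AT3G44570 (0.86), again over 8 averaged samples. Within a sample the genes share the array and its total signal. AT4G18180 had 2.12, 0.71, 1.98 and 0.54 in white light samples 1 to 4, so samples 1 and 3 were high and samples 2 and 4 low, as for SARD4. AT2G28540 had 0.22, -1.38, -0.10 and -1.74, with the same samples high and low. AT4G23080 had 1.22, -0.43, 1.03 and -2.23, with sample 4 the lowest. In blue light AT4G18180 had 1.8, 1.42, 1.49 and 1.6, so it did not follow SARD4, which was highest in sample 3. AT2G28540 had -0.79, -1.73, -1.39 and -1.33 in blue light, with sample 1 the highest. In AT4G23080, AT5G64150 and AT3G44570 blue light samples 1 and 3 were above samples 2 and 4, as in SARD4. The white light split enters the likeness by which these genes were chosen, so sharing it is a description and was not tested.

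**Figure D5:**
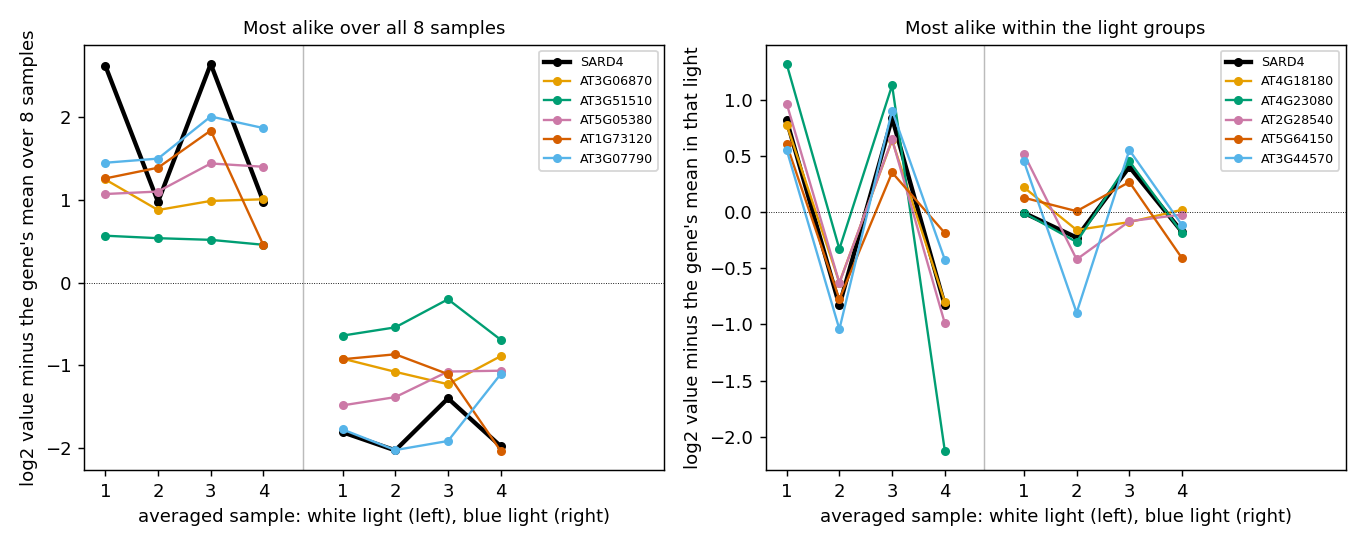
Log2 values of SARD4 (black) and of the 5 most alike single-gene features, by averaged sample, white light at the left of each panel and blue light at the right. In the left panel each gene's mean over 8 samples is subtracted and likeness was taken over all samples. In the right panel each gene's mean in that light is subtracted and likeness was taken within the lights. Lines only link the points of a gene. AT5G05380 is PRA1.B3. The genes at the left drop between the lights, and none of them has samples 1 and 3 apart from samples 2 and 4 in white light by as much as SARD4. Those at the right follow SARD4 up and down across the white light samples.

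The difference between the lights did not choose this second set, and it was small or opposite in most of it. AT5G64150 rose in blue light by 1.43 (SE 0.34, n = 4 per light, limma adjusted p = 0.00988), against the direction of SARD4, and passed under all 19 alternatives. Its white light values were -2.10, -3.48, -2.35 and -2.89, all below its blue light values of -1.14, -1.26, -1.0 and -1.68. The other 4 did not pass, with log2 differences of 0.24 for AT4G18180, 0.16 for AT4G23080, -0.56 for AT2G28540 and -0.60 for AT3G44570, and limma adjusted p-values between 0.364 and 0.875. Of these 5 genes 1 was called higher and 0 lower, which is too few to set against the 15.9% and 16.4% of all tested features.

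SARD4 lies on chromosome 5. The nearest genes with a single-gene feature were AT5G52530 and AT5G52660 on the one side, with 32 and 16 genes between them and SARD4. On the other side they were AT5G52960 and AT5G52970, with 20 and 22 genes between, in the order of the TAIR10.1 gene table. By limma 0 of these 4 neighbours passed in either direction, against 15.9% higher and 16.4% lower over all tested features. An unadjusted p under 0.05 was found in 2 of the 4. The share of all tested features under that unadjusted limit is not given here, so the 2 cannot be set against it. So few genes say nothing particular about the region. AT5G52660 was at -3.39, -3.31, -0.21 and -2.48 in white light and at -4.28, -3.44, -4.57 and -3.93 in blue light, with white light sample 3 far above the rest. Its difference was -1.71 (SE 0.63, limma adjusted p = 0.0593), and without white light sample 3 it was -0.99. It passed under 4 of 19 alternatives, among them those without white light sample 1 (-2.02) or sample 2 (-2.04), and was -0.87 scaled to total signal and -0.17 without normalisation. AT5G52970 differed by 1.0 in the direction opposite to SARD4 (SE 0.35, limma adjusted p = 0.0513) and passed under 10 of 19 alternatives, so the lack of a call is not firm. With the sample number as a replicate block its adjusted p was 0.0153, scaled to total signal its difference was 1.76 (adjusted p = 0.00347) and without normalisation it was 2.46 (adjusted p = 0.00569). AT5G52530 differed by -0.24, and by -0.68 without blue light sample 4, in which replicate 7 was at 0.34 and all other blue light columns were between -3.46 and -2.74. AT5G52960 differed by -0.17.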

How the data were processed

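Arabidopsis transcript levels were read from the deposited table of linear intensity values, 1 column per sample. How the authors corrected background and scaled the values is a step not given in the sources used here. Zeros were treated as missing on the log2 scale, and a feature entered the test with values above 0 in 6 or more columns per light. Columns were quantile-normalised, neighbouring replicate numbers were averaged, and the lights were compared by a two-sided moderated test (lmFit, eBayes; limma 3.58.1, R 4.3.3), with Benjamini-Hochberg adjustment over 2864 features and a threshold of 0.05. The code was tested on simulated data. Of the features, 692 were paired with 1 gene in the platform annotation, 870 with several and 1877 with none, and 691 of the single genes matched the gene table. SARD4, the lists and the processing were chosen with earlier results of these data known. Named genes were all list members with a single-gene feature, the 5 genes most like SARD4 by each measure, the 2 nearest measured genes on each side, and the genes next to SARD4 in the order of decreases. The rule also asked for the closest relative by protein sequence, which was not analysed here. Same-numbered samples of the lights deviated together (r = 0.39, 0.46, 0.19 and 0.35, all above the limit of 0.1), so the numbers were taken to pair them. Samples with different numbers had r between -0.27 and 0.11, so the highest of these also passed that limit. The fit used has no block. Alternatives covered normalization, low values (10th percentile of values above 0, 0.0764), filters, averaging, the block and samples left out.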

Additional observations from a re-analysis of the deposited data

Results flagged for a closer look

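Of 34 groups of 4 averaged samples examined for the named genes, 1 had a sample whose gap to its nearest neighbour was above Dixon's critical value for the group's range. By the level of that criterion about 1 group in 20 passes it by chance. AT3G56010, the gene with the next larger decrease, had white light sample 3 at -2.41, with the other white light samples between -3.47 and -3.36. Its white light columns were at -1.71 and -3.12 in replicates 5 and 6 (sample 3), and at -2 and -4.73 in replicates 7 and 8 (sample 4). Replicate 7 thus lay above the flagged sample, and these neighbours lay further apart than the flagged sample was from the others. Replicates 1 and 2 were both at -3.47, and replicates 3 and 4 were at -3.96 and -2.98. The intensity was only 0.00911 in replicate 8, so the flag is uncertain. Other samples that stood off, such as white light sample 3 of AT5G52660, did not reach Dixon's critical value. The 34 groups include both lights of SARD4, and neither held a sample above that value. In white light its values formed a high pair (1.83 and 1.85) and a low pair (0.18 and 0.18). No sample of that group lay far from its nearest neighbour, so the criterion had nothing to flag there. SARD4 was chosen partly by this split, so the missing flag in white light is not a result.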

How the results depend on the processing

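The SARD4 difference kept its direction under all 19 alternatives and moved by more than the SD between samples only without normalisation (-2.51). The range of SARD4 in white light was then 3.65 in place of 1.66, and with 0 values counted its blue light percentile was 30.3% in place of 19.9%. Counts of features called higher and lower were 1530 and 44 without normalisation (97.2% higher), 1074 and 213 scaled to total signal (83.4% higher) and 734 and 749 with 16 separate columns, against 456 and 471 (49.2% higher); with the replicate block they were 596 and 599. DAPF (AT3G53580) did not pass with median centring (-1.23), total signal (-0.44), cyclic loess (-0.92), the pseudocount (-0.76), low values raised (-0.82), the looser filter of 2 columns (-1.40) or without replicates 7 and 8 of both lights (-1.63), was 0.26 without normalisation, and ran from -1.77 to -1.04 with single averaged samples left out. Its adjusted p ran from 0.00746 to 0.721. It lost its call without white light sample 1, 2 or 4 or blue light sample 2, 3 or 4. Changes that did not pass turned direction in AT4G18180 with median centring (-0.77), without white light sample 4 (-0.02; -0.02 to 0.49 over all samples left out) and without replicates 7 and 8 of both lights (-0.02). AT4G23080 turned with median centring (-0.44), without white light sample 4 (-0.53), blue light sample 3 (-0.02; -0.53 to 0.59 over all samples left out) or replicates 7 and 8 (-0.47). Without normalisation AT2G28540 was at 0.69, AT3G44570 at 0.60, AT5G52530 at 1.31 (which passed) and AT5G52960 at 1.14, and scaled to total signal AT5G52530 was at 0.61 and AT5G52960 at 0.44. Among the 10 genes tested by name, the block changed the call of AT5G52970 only. The causes were not tested. How far SARD4 in blue light stood above local background is unknown.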
